A study of Mus musculus with 53 samples.

Results

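The genes of cholesterol synthesis, fatty acid synthesis and their control were followed in mouse embryonic fibroblasts, the connective tissue cells grown from embryos, with and without the histone chaperone ANP32E. A list of 38 genes was read by symbol from the RNA tables, in which 43432 genes are listed. The list was chosen with earlier results of these data known, so shares of members set beside shares of all genes only describe. All 38 were found in both tables and 37 of them passed the filter on low values in each. The list holds 7 enzymes of the mevalonate steps, 11 enzymes of the sterol steps, 5 regulators of SREBP, 4 genes of cholesterol uptake and transport, 4 of export and storage and 7 of fatty acid and lipid synthesis. The study measured 53 samples, of which 22 are RNA libraries and 31 are CUT&Tag samples that were not used here. In the first RNA table (DAC table, in FPKM) the groups were KO DAC (3 libraries), WT DAC (3), KO DMSO (2) and WT DMSO (2), where KO stands for ANP32E-KO cells and WT for wild type cells. DAC is decitabine, an inhibitor of DNA methyltransferases, and DMSO is its solvent. In the second (siRNA table, in RPKM) they were KO H2AZ siRNA, WT H2AZ siRNA, KO NT siRNA and WT NT siRNA, with 3 libraries each, where the H2AZ siRNA is directed against the histone variant H2A.Z and NT is the label of the control siRNA. The labels call the libraries biological replicates, other than those of KO H2AZ siRNA, which are only numbered. They give neither the knockout allele nor whether libraries came from separate cultures, lines or embryos, so p-values measure the spread between these libraries, which may be technical.

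Cells make cholesterol from acetyl-CoA through mevalonate, isoprenoid diphosphates, squalene and lanosterol, and make fatty acids from the same acetyl-CoA. Both pathways are switched on by the transcription factors SREBP1 and SREBP2, the products of Srebf1 and Srebf2, which SCAP escorts out of the endoplasmic reticulum when membranes are short of sterol and which INSIG proteins hold back when sterol is plentiful. Surplus cholesterol is exported under control of the liver X receptors or stored as ester. Many promoters of the pathway are bound by SREBP together with NF-Y and SP1, which recognise CCAAT boxes and GC boxes.

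The libraries of the DAC table held between 27503472 and 36910532 reads and those of the siRNA table between 31928320 and 47172427, and each table was normalised and tested separately. As a check of the genotype, transcripts of Anp32e were less abundant in KO than in WT cells in each condition (log2 fold changes of −1.35 for DMSO, −1.07 for DAC, −1.74 for NT siRNA and −1.61 for H2AZ siRNA). H2afz, which encodes H2A.Z, fell by 3.48 in WT and by 2.75 in KO on the log2 scale with H2AZ siRNA. Both KO DMSO libraries stood apart from the rest of the DAC table on the first principal component, at 66.8 and 66.2 against −29.9 to −1.9. In them the summed level of 8 mesothelial markers was 1010 to 1040 FPKM, against 9.33 to 11.7 FPKM in WT DMSO, where Lrrn4 and Gpm6a were at 0, and all 8 averaged at least 1 FPKM in KO DMSO, against 3 in WT DMSO. The sum was 108 to 125 FPKM in KO DAC and 38.5 to 49.7 FPKM in WT DAC, 152 to 163 RPKM in KO H2AZ siRNA and 19.5 to 20.3 RPKM in WT H2AZ siRNA, and 164 to 185 RPKM in KO NT siRNA and 18.4 to 20.4 RPKM in WT NT siRNA. The WT sums were mostly Msln and Krt19, in WT DAC at means of 33.2 and 7.34 FPKM. There Upk3b, Upk1b, Wt1, Lrrn4 and Gpm6a averaged at most 0.718 FPKM. Msln was lower in KO DAC, at 23.3 FPKM, than in WT DAC. Krt19 averaged 1.97 FPKM in KO DMSO, against 2.72 FPKM in WT DMSO. The 8 fibroblast markers summed to 1280 to 1325 FPKM in KO DMSO, against 2503 to 2632 FPKM in WT DMSO, and to 1087 to 1258 FPKM in KO DAC, against 1374 to 1553 FPKM in WT DAC. Of these markers Thy1 averaged 45.3 FPKM in KO DMSO and 28.8 FPKM in WT DMSO, and Col3a1 averaged 111.5 FPKM in KO DMSO and 106.9 FPKM in WT DMSO, with overlap. In the siRNA table the sum was higher in KO, at 1026 to 1082 RPKM in KO H2AZ siRNA, against 916.3 to 956.1 RPKM in WT H2AZ siRNA, and at 1152 to 1170 RPKM in KO NT siRNA, against 964.6 to 994.2 RPKM in WT NT siRNA. The 7 adipocyte markers summed to at most 3.63 in any group, and the 5 hepatocyte markers to at most 0.128. The part of the mesothelial and fibroblast markers in the differences below was not tested, and in bulk RNA fewer cells of a type and less RNA per cell cannot be told apart. KO cultures expressed the Y-linked Ddx3y at 3.02 to 5.43 FPKM and 3.08 to 6.73 RPKM, and WT cultures at no more than 0.0721 FPKM and at 0 RPKM, so genotype and sex cannot be told apart in any comparison of KO with WT. Xist, which is X-linked, was at 0.579 to 0.923 FPKM in KO DMSO and at 28.5 to 44.4 FPKM in KO DAC. In WT it was at 169.7 to 181 FPKM in DMSO and at 135.6 to 210.1 FPKM in DAC. The 2 KO groups of the DAC table thus also differed in a sex-linked transcript, and its part in the DAC response was not tested. Nsdhl and Ebp are the 2 X-linked members.

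Promoter windows of 300 bases, from 250 before to 50 after the annotated start, were taken from RefSeq (GRCm38.p6) for 30 of the 38 members, in 38 windows. The windows of 4 members are shown because Hmgcs1 and Idi1 of the mevalonate steps and Msmo1 of the sterol steps were lower in KO under all 4 conditions, while Soat1, which esterifies cholesterol for storage, was higher under all 4. They lie at chr13:119690101-119690400 (Hmgcs1, plus strand), chr13:8885356-8885655 (Idi1, plus strand), chr8:64733529-64733828 (Msmo1, minus strand) and chr1:156474279-156474578 (Soat1, minus strand), and are written 5′ to 3′ along the gene. Capitals mark the sterol regulatory element TCACNCCAC, the CCAAT box CCAAT and the GC box GGGCGG, searched on both strands, so that a match on the other strand reads ATTGG or CCGCCC.
Hmgcs1: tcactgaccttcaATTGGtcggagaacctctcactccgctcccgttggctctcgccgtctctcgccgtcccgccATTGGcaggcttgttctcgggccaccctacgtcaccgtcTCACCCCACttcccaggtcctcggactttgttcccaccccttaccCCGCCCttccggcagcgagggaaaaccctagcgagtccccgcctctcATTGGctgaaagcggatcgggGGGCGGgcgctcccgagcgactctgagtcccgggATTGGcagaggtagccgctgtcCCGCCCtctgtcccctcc
Idi1: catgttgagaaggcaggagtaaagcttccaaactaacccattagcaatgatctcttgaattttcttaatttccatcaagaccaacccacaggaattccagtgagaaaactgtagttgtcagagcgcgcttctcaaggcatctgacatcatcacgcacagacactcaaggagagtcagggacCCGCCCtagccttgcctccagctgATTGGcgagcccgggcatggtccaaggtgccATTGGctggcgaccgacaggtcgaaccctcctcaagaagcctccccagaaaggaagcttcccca
Msmo1: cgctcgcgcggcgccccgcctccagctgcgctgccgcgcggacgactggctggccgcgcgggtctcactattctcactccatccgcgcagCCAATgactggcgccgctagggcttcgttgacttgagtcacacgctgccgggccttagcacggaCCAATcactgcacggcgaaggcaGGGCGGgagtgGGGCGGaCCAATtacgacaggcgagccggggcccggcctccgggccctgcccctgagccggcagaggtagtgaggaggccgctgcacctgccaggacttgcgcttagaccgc
Soat1: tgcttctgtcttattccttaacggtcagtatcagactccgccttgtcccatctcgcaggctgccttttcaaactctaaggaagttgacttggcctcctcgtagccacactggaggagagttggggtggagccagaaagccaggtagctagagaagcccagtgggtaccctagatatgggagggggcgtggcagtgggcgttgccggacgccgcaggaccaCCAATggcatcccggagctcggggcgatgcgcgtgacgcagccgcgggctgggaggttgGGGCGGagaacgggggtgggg

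The sterol regulatory element, spelled as above, was found in the windows of 1 member, Hmgcs1, where it began 137 bases before the start. It was in 1.24% of all 32851 windows of the reference. The Hmgcs1 window also held 4 CCAAT boxes and 3 GC boxes, and that of Msmo1 held 3 CCAAT boxes and 2 GC boxes. CCAAT was in 63.2% of the 38 member windows, against 37.4% of all windows and 38.2% of those of protein-coding genes. GGGCGG was in 73.7% of the member windows, against 35.7% of all windows and 46.2% of those of protein-coding genes. Counted over all windows of a gene, all 9 sterol-step genes with a window held both. Of these, Dhcr7 held CCAAT only in its window at chr7:143829964-143830263. Of the 5 genes of fatty acid and lipid synthesis with a window 2 held CCAAT and 1 held GGGCGG. The windows of Acaca (chr11:84195188-84195487) and Lpin1 (chr12:16610917-16611216) lie far inside these genes, which span chr11:84129635-84401651 and chr12:16535669-16653903. The counts of the role groups thus depend on which starts have a window. A match describes letters only and shows no binding.

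Summed over the 18 enzymes of the mevalonate and sterol steps, transcript levels in the DAC table were lowest in KO DMSO. The sum was 215 and 210.5 FPKM in the KO DMSO libraries, against 421 and 375.5 FPKM in the WT DMSO libraries. In DAC it was 277.5 to 284 FPKM in KO and 339.7 to 393 FPKM in WT. In the siRNA table the sum was also lower in KO, with 654 to 662 RPKM in KO H2AZ siRNA and 784 to 802 RPKM in WT H2AZ siRNA, and with 679 to 685 RPKM in KO NT siRNA and 803 to 832 RPKM in WT NT siRNA. No KO library reached the lowest WT library of its condition. These sums weigh the abundant genes most: with NT siRNA the median log2 fold change was −0.053 over the 7 mevalonate enzymes, of which 3 were lower and none higher, and −0.045 over the 11 sterol enzymes, of which 4 were lower and 3 higher, against −0.096 over all genes tested. The 7 genes of fatty acid and lipid synthesis followed another pattern, since their sum separated KO from WT in DMSO, at 307.5 and 313 FPKM against 481 and 434.5 FPKM, but overlapped between genotypes in NT siRNA, at 344 to 372 RPKM in KO and 332 to 354 RPKM in WT. Among the members, Scd2, a stearoyl-CoA desaturase, had the highest level per length in all 4 groups of the DAC table, between 146 and 240 FPKM.

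**Figure D1:**
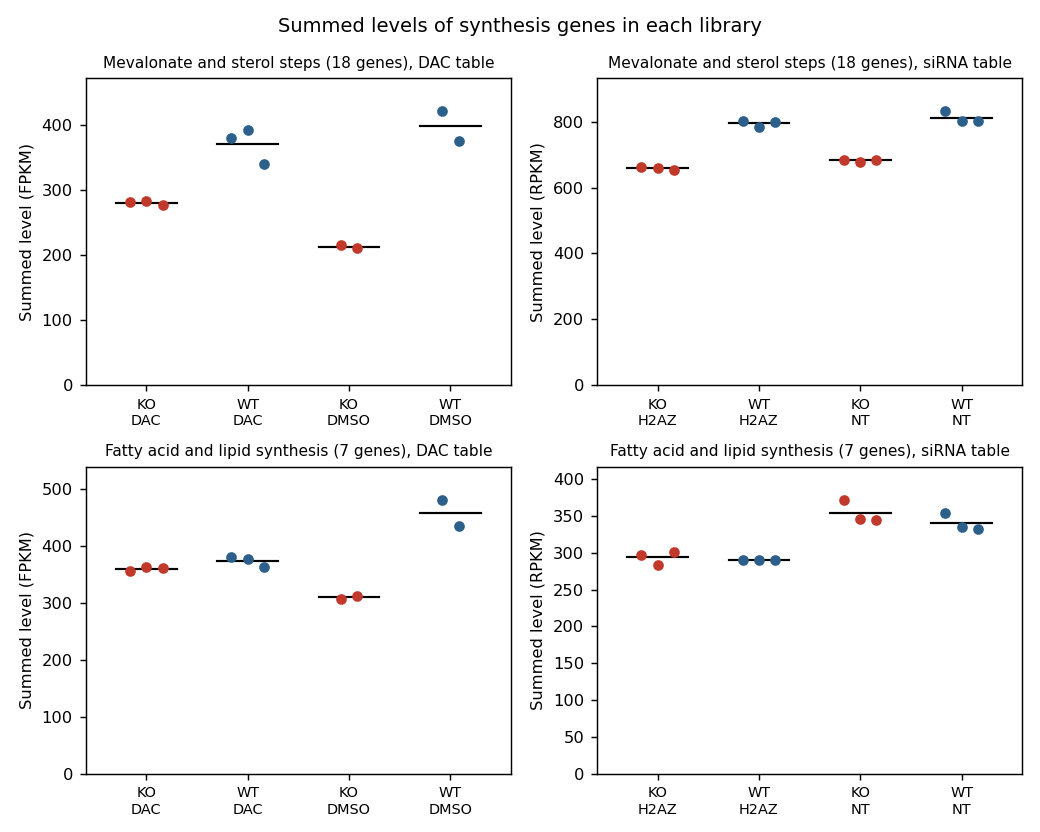
Summed transcript level in each library (points, KO red and WT blue; bar, group mean) of the 18 mevalonate and sterol enzymes (top, FPKM left and RPKM right) and of the 7 fatty acid and lipid synthesis genes (bottom). The sterol sum in KO DMSO, 215 and 210.5 FPKM, lies below every other library of its table, and the fatty acid sum is lower in both H2AZ siRNA groups than in both NT siRNA groups.

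KO and WT cells were first compared in DMSO. Of the 37 members tested, 27 were lower and 3 higher in KO DMSO than in WT DMSO, where 22.9% of all genes tested were lower and 19.6% higher (limma, Benjamini-Hochberg adjusted p under 0.05). The median log2 fold change, taken on the value plus 1, was −0.60 over the members and −0.04 over all 16435 genes tested. All 7 enzymes of the mevalonate steps were lower, with a median of −1.16. Fdps, which makes farnesyl diphosphate and was the highest of these 7, was at 25.1 and 28.3 FPKM in KO DMSO, against 82.2 and 67.5 FPKM in WT DMSO. Its log2 fold change of −1.45 ± 0.17 (SE, limma adjusted p = 0.000172) was the largest fall among the members. Idi1, the isomerase of isopentenyl diphosphate, was at 11.3 and 10.7 FPKM in KO DMSO, against 30.1 and 26.7 FPKM in WT DMSO (−1.29 ± 0.10, limma adjusted p = 1.67e-05). In both genes the 2 KO libraries lay below the 2 WT libraries. Groups of 2 separate readily, and 36 of the 37 members tested did not overlap here, called or not. The share over all genes was not counted, so this count shows nothing particular to the members.

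Hmgcs1, which condenses acetyl-CoA units to HMG-CoA ahead of the reductase step, was at 18.3 and 17.3 FPKM in KO DMSO, against 42.2 and 39.8 FPKM in WT DMSO (−1.16 ± 0.07, limma adjusted p = 4.33e-06). The kinase Mvk was at 3.78 and 4.16 FPKM in KO DMSO, against 11.1 and 10.2 FPKM in WT DMSO (−1.23 ± 0.10, limma adjusted p = 2.41e-05). The decarboxylase Mvd and the thiolase Acat2 were lower by log2 fold changes of −0.98 and −0.47. Pmvk, the kinase after Mvk, was called lower at −0.99 ± 0.24 (limma adjusted p = 0.00943), but it was covered by as few as 17 reads in this table, against at least 899 in the siRNA table, and the call ended without KO DMSO 1 or WT DMSO 2, at limma adjusted p = 0.0614 and 0.0721.

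All 11 enzymes of the sterol steps were also lower in KO DMSO, between −1.02 and −0.30, with a median of −0.61. The largest fall was that of Hsd17b7, a ketosteroid reductase that helps to remove the methyl groups of lanosterol. It was at 3.27 and 2.80 FPKM in KO DMSO, against 7.68 and 6.72 FPKM in WT DMSO (−1.02 ± 0.08, limma adjusted p = 1.67e-05). Sqle, the squalene epoxidase, was at 12.7 and 12.9 FPKM in KO DMSO, against 25.0 and 23.3 FPKM in WT DMSO (−0.87 ± 0.07, limma adjusted p = 1.24e-05). Nsdhl and Ebp, both X-linked, fell by 0.89 and 0.78. Squalene synthase Fdft1, lanosterol synthase Lss and the demethylase Cyp51 had log2 fold changes of −0.61, −0.63 and −0.61. Sc5d, a desaturase near the end of the pathway and the member of this group with the most transcript in the DAC table, was at 31.6 and 28.4 FPKM in KO DMSO, against 43.1 and 39.2 FPKM in WT DMSO (−0.45 ± 0.13, limma adjusted p = 0.0266). The 3 calls with the least support were those of Sc5d, the sterol reductase Tm7sf2 and the methylsterol oxidase Msmo1. That of Sc5d ended without any 1 of the 4 DMSO libraries (adjusted p = 0.0531 to 0.141), that of Tm7sf2 without KO DMSO 2, WT DMSO 1 or WT DMSO 2 (0.0758 to 0.131) and that of Msmo1 without KO DMSO 2 or WT DMSO 1 (0.135 to 0.146). The Fdft1 and Tm7sf2 loci overlap Ctsb and Vps51 in RefSeq, and the strand setting of the counting is not given in the sources used here. Loci of members in other roles overlap other genes too, such as Npc1 with Rmc1, Acaca with Tada2a, Lpin1 with Ntsr2 and Srebf1 with Rai1.

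**Figure D2:**
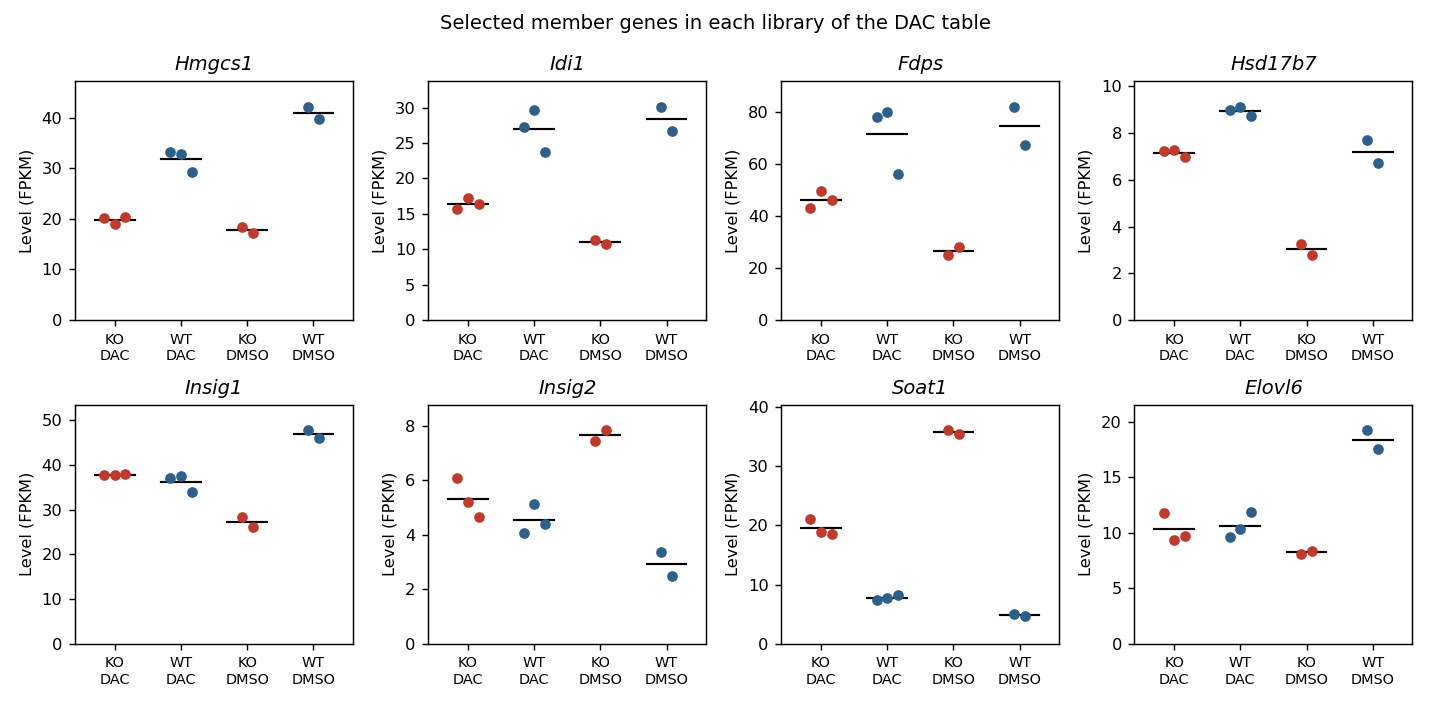
Level in FPKM of 8 members in each library of the DAC table (points, KO red and WT blue; bar, group mean; each axis starts at 0). Fdps, Idi1, Hmgcs1 and Hsd17b7 are lowest in KO DMSO, whereas Soat1 and Insig2 are highest there, at 36.1 and 35.5 FPKM and at 7.45 and 7.83 FPKM.

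The regulators did not move as one group in DMSO. Insig1, an SREBP target that itself holds SREBP back, was at 28.4 and 26.1 FPKM in KO DMSO, against 47.7 and 45.9 FPKM in WT DMSO (−0.76 ± 0.06, limma adjusted p = 2.36e-05). Its paralog Insig2 went the other way and was at 7.45 and 7.83 FPKM in KO DMSO, against 3.36 and 2.49 FPKM in WT DMSO (1.15 ± 0.14, limma adjusted p = 0.000262). Srebf2, with the highest level among the regulators, was at 58.6 and 63.2 FPKM in KO DMSO, against 73.8 and 73.3 FPKM in WT DMSO (−0.27 ± 0.07, limma adjusted p = 0.0183). This last call ended without KO DMSO 1, WT DMSO 1 or WT DMSO 2 (adjusted p = 0.0705 to 0.131). Srebf1 (−0.12) and Scap (−0.25) did not pass the test.

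Soat1 had the largest change of all members. It was at 36.1 and 35.5 FPKM in KO DMSO, against 4.95 and 4.64 FPKM in WT DMSO, a log2 fold change of 2.67 ± 0.07 (limma adjusted p = 4.81e-08), and its lowest KO library was far above its highest WT library. Of the other genes of export and storage, the exporter Abca1 (0.11) and the liver X receptor Nr1h2 (−0.35) did not pass the test, and the exporter Abcg1, which had between 6 and 43 reads per library of the DAC table and between 2 and 19 per library of the siRNA table, was not tested. Among the uptake and transport genes, Npc1 and Npc2, which together carry cholesterol out of lysosomes, parted. Npc1 was at 13.0 and 13.1 FPKM in KO DMSO, against 10.6 and 10.3 FPKM in WT DMSO (0.30 ± 0.05, limma adjusted p = 0.00174), while Npc2 was at 38.1 and 39.4 FPKM in KO DMSO, against 58.6 and 59.9 FPKM in WT DMSO (−0.60 ± 0.06, limma adjusted p = 6.55e-05). Mylip, a ubiquitin ligase that targets lipoprotein receptors, was at 12.9 and 14.2 FPKM in KO DMSO, against 26.7 and 26.0 FPKM in WT DMSO (−0.92 ± 0.14, limma adjusted p = 0.000959). The sterol carrier Stard4 did not pass (−0.20).

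Fatty acid synthesis was lower in 5 of its 7 members in KO DMSO and higher in none. Elovl6, which lengthens palmitate, was at 8.11 and 8.38 FPKM in KO DMSO, against 19.2 and 17.6 FPKM in WT DMSO (−1.07 ± 0.12, limma adjusted p = 0.000129). Scd2 was at 146 and 148 FPKM in KO DMSO, against 240.1 and 211.5 FPKM in WT DMSO (−0.61 ± 0.08, limma adjusted p = 0.000262). The desaturase Scd1, the carboxylase Acaca and the synthase Fasn had log2 fold changes of −0.69, −0.37 and −0.32. Acly, which supplies cytosolic acetyl-CoA (−0.28), and the phosphatidate phosphatase Lpin1 (−0.03) did not pass the test.

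With DAC in both genotypes, 14 members were lower and 1 higher in KO DAC than in WT DAC, against 11.6% of all genes tested lower and 11.1% higher. The median log2 fold change was −0.14 over the members and −0.0011 over all genes tested. The lower members were 5 of the 7 mevalonate enzymes, 5 of the 11 sterol enzymes, Srebf2, Mylip, Abca1 and Lpin1. Hmgcs1 was at 20.2, 19.1 and 20.4 FPKM in KO DAC, against 33.3, 32.9 and 29.2 FPKM in WT DAC (−0.65 ± 0.06, limma adjusted p = 0.000156). Idi1 was at 15.7, 17.3 and 16.4 FPKM in KO DAC, against 27.3, 29.7 and 23.8 FPKM in WT DAC (−0.67 ± 0.08, limma adjusted p = 0.000783). Srebf2, at 49.0 to 54.0 FPKM in KO DAC and 65.5 to 74.1 FPKM in WT DAC, had a log2 fold change of −0.44 ± 0.06 (limma adjusted p = 0.00122). The single higher member was Soat1, at 21.0, 18.9 and 18.6 FPKM in KO DAC, against 7.38, 7.69 and 8.16 FPKM in WT DAC (1.23 ± 0.06, limma adjusted p = 4.87e-06). Of the fatty acid genes only Lpin1 passed, at −0.31. Calls that ended without 1 library were those of Mvd (KO DAC 3, WT DAC 1 or WT DAC 2, adjusted p up to 0.0643), Hsd17b7 (the same 3 libraries, up to 0.0605), Fdps (WT DAC 1 or WT DAC 2, up to 0.0565), Msmo1 (WT DAC 2, 0.0509) and Mylip (KO DAC 2, 0.0643).

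The response to DAC was tested within each genotype. In KO, 15 members were higher and 7 lower in DAC than in DMSO, where 23.7% of all genes tested were higher and 21.6% lower. In WT, 4 members were higher and 10 lower, where 14.5% were higher and 13.8% lower. Among the 18 enzymes of the mevalonate and sterol steps, 9 were higher and none lower in KO DAC than in KO DMSO, and 1 was higher and 2 lower in WT DAC than in WT DMSO. Of these calls, that of Acat2 in KO ended without any 1 of the KO DAC or KO DMSO libraries or without WT DAC 1 (adjusted p = 0.0512 to 0.205). In WT that of Hsd17b7 ended without WT DAC 1, WT DAC 2 or WT DMSO 2 (0.0591 to 0.197), and that of Dhcr7 without WT DMSO 1 (0.0507). Hsd17b7 had the largest rise in KO and was at 7.24, 7.27 and 6.96 FPKM in KO DAC, against 3.27 and 2.80 FPKM in KO DMSO (1.02 ± 0.08, limma adjusted p = 1.04e-05). Fdps was at 43.2, 49.7 and 46.2 FPKM in KO DAC, against 25.1 and 28.3 FPKM in KO DMSO (0.78 ± 0.16, limma adjusted p = 0.00356). In WT the same gene was at 78.2, 80.3 and 56.3 FPKM in DAC, against 82.2 and 67.5 FPKM in DMSO (−0.07 ± 0.16, limma adjusted p = 0.773), with overlap between the groups.

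The 3 members that were higher in KO DMSO than in WT DMSO, Soat1, Insig2 and Npc1, were lower in KO DAC than in KO DMSO. Both comparisons use the same KO DMSO libraries, so choosing members that were high there favours a fall. Soat1, with the values given above, fell by 0.84 in KO DAC relative to KO DMSO (limma adjusted p = 1.76e-05) and was higher by 0.59 in WT DAC than in WT DMSO (limma adjusted p = 0.000342). Insig2 was at 6.08, 5.21 and 4.64 FPKM in KO DAC, against 7.45 and 7.83 FPKM in KO DMSO (−0.46 ± 0.13, limma adjusted p = 0.0202), and at 4.08, 5.12 and 4.39 FPKM in WT DAC, against 3.36 and 2.49 FPKM in WT DMSO (0.50 ± 0.13, limma adjusted p = 0.022). The first of these calls ended without KO DAC 2, KO DAC 3, KO DMSO 1 or KO DMSO 2 (adjusted p up to 0.104) and the second without WT DAC 2 or WT DMSO 2 (up to 0.184). In WT the largest falls with DAC were those of Mylip, at 12.7, 13.8 and 17.9 FPKM in WT DAC against 26.7 and 26.0 FPKM in WT DMSO (−0.81 ± 0.13, limma adjusted p = 0.00223), and of Elovl6, at 9.59, 10.3 and 11.8 FPKM in WT DAC against 19.2 and 17.6 FPKM in WT DMSO (−0.75 ± 0.11, limma adjusted p = 0.00128). Lpin1 was higher in WT DAC than in WT DMSO by 0.46 ± 0.05 (limma adjusted p = 0.000406). Npc1 had log2 fold changes of −0.53 in KO and −0.23 in WT, the second of which did not pass without WT DMSO 1 (adjusted p = 0.0561). The 10 lower members in WT became 6 without WT DMSO 1, the 4 higher ones became 2 without WT DAC 2 or WT DMSO 2, and the 7 lower members in KO became 3 without KO DMSO 2 and 4 without KO DMSO 1, KO DAC 2 or KO DAC 3.

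The difference between these responses, DAC in KO minus DAC in WT, was tested as an interaction. It was higher for 18 members and lower for 5, against 12.4% and 11.7% of all genes tested. The 18 were 6 of the 7 mevalonate enzymes, 5 sterol enzymes (Sqle, Nsdhl, Hsd17b7, Ebp and Dhcr7), Insig1, Npc2 and 5 of the 7 fatty acid genes. Elovl6 had the largest positive value, 1.03 ± 0.15 (limma adjusted p = 0.00156), and Soat1 the largest negative one, −1.44 ± 0.10 (limma adjusted p = 2.09e-05). Insig1, at 37.6 to 37.9 FPKM in KO DAC and 28.4 and 26.1 FPKM in KO DMSO, and at 33.9 to 37.6 FPKM in WT DAC and 47.7 and 45.9 FPKM in WT DMSO, had an interaction of 0.82 ± 0.08 (limma adjusted p = 0.00018). The DAC groups of both genotypes thus lay between the DMSO groups for this gene. The KO DMSO libraries enter the interaction, the DAC response in KO and the comparison of genotypes in DMSO, so these share the libraries that stood apart. The 5 lower members became 3 without KO DMSO 1 or KO DMSO 2.

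**Figure D3:**
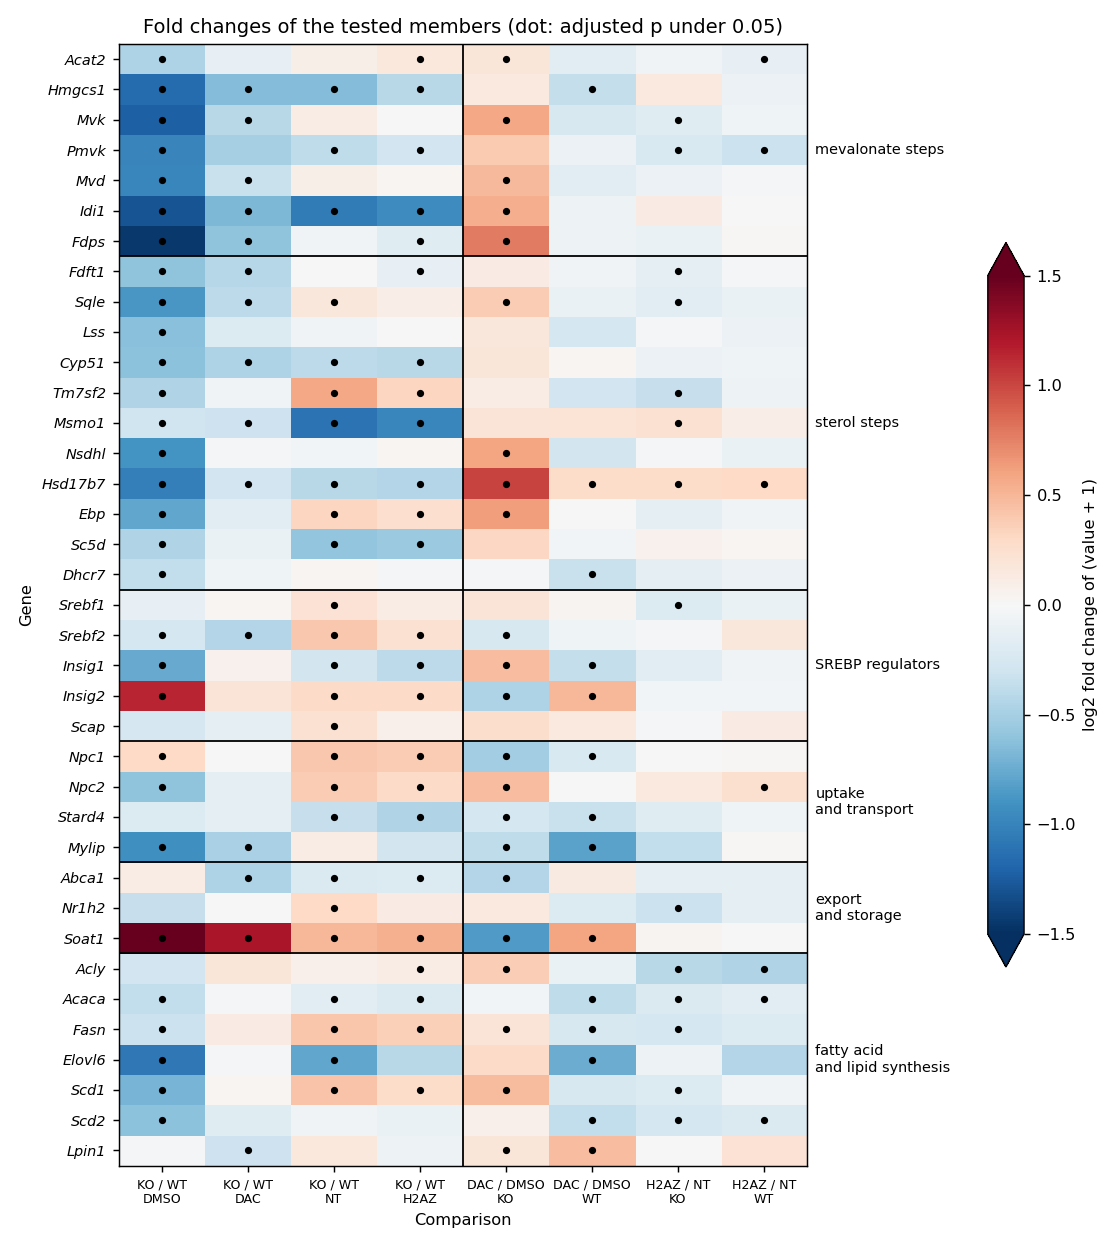
Log2 fold changes of the 37 tested members (rows, by role) in the 4 comparisons of KO over WT and the 4 of treatment over control, on the value plus 1, with the scale limited to −1.5 and 1.5. A dot marks limma adjusted p under 0.05, and the first column holds 27 lower and 3 higher members.

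The siRNA table gave a second comparison of genotypes, in cells with the NT control siRNA and with no library in common with the first. Here 13 members were higher and 12 lower in KO NT siRNA than in WT NT siRNA, against 23.7% of all genes tested higher and 40.4% lower. The members' median was 0.07 and that of all 12668 genes tested −0.10, so falls are read against a shift of all genes. After centring each library on its median, 19 members were higher and 10 lower, and over all genes 4288 were higher and 3780 lower, against 3004 and 5122 as deposited. Of the 7 mevalonate enzymes 3 were lower and none higher. Idi1 was at 34.5, 24.4 and 27.9 RPKM in KO NT siRNA, against 67.6, 57.2 and 57.4 RPKM in WT NT siRNA (−1.05 ± 0.11, limma adjusted p = 8.82e-06). Hmgcs1 was at 73.0, 62.7 and 58.3 RPKM in KO NT siRNA, against 120.2, 94.0 and 92.7 RPKM in WT NT siRNA (−0.65 ± 0.12, limma adjusted p = 0.000457). Pmvk, well covered in this table, was at 18.2, 20.5 and 16.9 RPKM in KO NT siRNA, against 24.2, 23.8 and 25.1 RPKM in WT NT siRNA (−0.38 ± 0.06, limma adjusted p = 0.000207). The genotypes did not overlap in these 3 genes, but that held for 28 of the 37 members tested with NT siRNA, called or not. The share over all genes was not counted here either. Fdps, with the largest fall in DMSO, was at 201 to 228 RPKM in KO NT siRNA and 208 to 237 RPKM in WT NT siRNA (−0.05 ± 0.06, limma adjusted p = 0.479), and Mvk (0.12), Mvd (0.09) and Acat2 (0.09) did not pass the test either.

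The sterol steps were divided with NT siRNA, with 4 enzymes lower and 3 higher in KO NT siRNA. Msmo1 had the largest fall among the members and was at 21.8, 19.1 and 19.0 RPKM in KO NT siRNA, against 45.7, 43.3 and 42.8 RPKM in WT NT siRNA (−1.10 ± 0.07, limma adjusted p = 1.25e-07). Sc5d, Hsd17b7 and Cyp51 had log2 fold changes of −0.59, −0.42 and −0.39. Tm7sf2 was higher, at 3.22, 3.22 and 3.42 RPKM in KO NT siRNA against 1.89, 1.67 and 2.03 RPKM in WT NT siRNA (0.59 ± 0.06, limma adjusted p = 8.73e-06). Ebp (0.33) and Sqle (0.17) were higher as well. Lss, Fdft1, Nsdhl and Dhcr7 lay between −0.05 and 0.02 and did not pass the test.

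Regulators and storage genes in NT siRNA were mostly higher in KO. Srebf2 was at 20.8, 19.5 and 18.8 RPKM in KO NT siRNA, against 14.8, 14.0 and 14.9 RPKM in WT NT siRNA (0.41 ± 0.05, limma adjusted p = 5.35e-05), which is the reverse of its difference in DMSO. Insig2 (0.29), Scap (0.23) and Srebf1 (0.22) were higher and Insig1 (−0.28) was lower. Soat1 was at 6.10, 5.72 and 6.16 RPKM in KO NT siRNA, against 3.92, 4.20 and 3.72 RPKM in WT NT siRNA (0.50 ± 0.06, limma adjusted p = 1.51e-05). Npc1 (0.40), Npc2 (0.38) and Nr1h2 (0.30) were higher, and Stard4 (−0.34) and Abca1 (−0.22) lower. Among the fatty acid genes, Scd1 was at 63.5, 59.98 and 61.0 RPKM in KO NT siRNA, against 48.3, 44.3 and 44.4 RPKM in WT NT siRNA (0.42 ± 0.05, limma adjusted p = 4.64e-05), and Fasn was also higher (0.42 ± 0.07, limma adjusted p = 0.000279). Elovl6 was lower, at 5.97, 4.88 and 4.04 RPKM in KO NT siRNA against 12.7, 7.48 and 8.02 RPKM in WT NT siRNA (−0.78 ± 0.19, limma adjusted p = 0.00348), and Acaca was lower at −0.17, a call that centring ended together with that of Abca1 (adjusted p = 0.345 and 0.243). The calls that ended without 1 library were those of Insig1 (WT NT siRNA 1 or KO NT siRNA 2, adjusted p up to 0.0605), Insig2 (WT NT siRNA 3, 0.0531), Scap (WT NT siRNA 1, 0.0504), Stard4 (WT NT siRNA 1, KO NT siRNA 2 or KO NT siRNA 3, up to 0.075) and Abca1 (WT NT siRNA 1, WT NT siRNA 3 or KO NT siRNA 2, up to 0.0851).

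**Figure D4:**
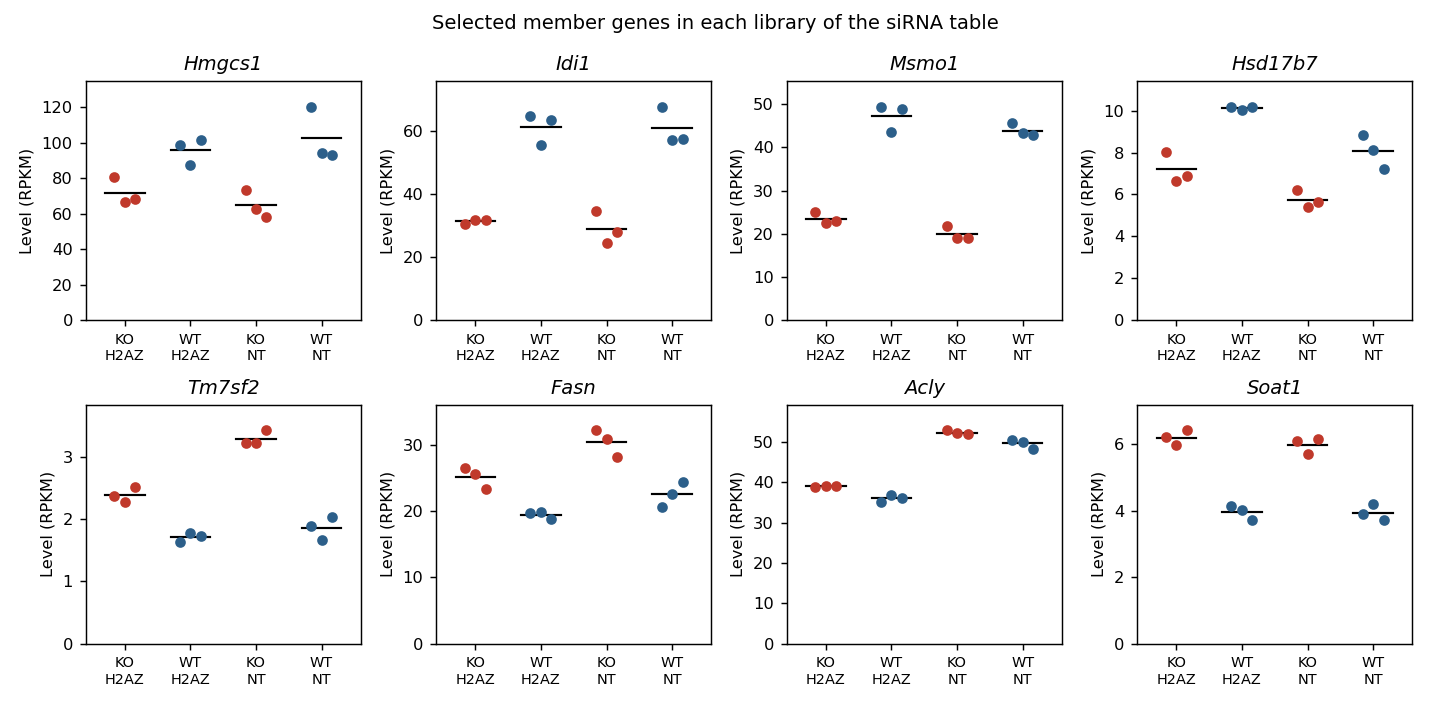
Level in RPKM of 8 members in each library of the siRNA table (points, KO red and WT blue; bar, group mean; each axis starts at 0). Hmgcs1, Idi1, Msmo1 and Hsd17b7 are lower in KO with either siRNA, Tm7sf2, Fasn and Soat1 are higher in KO, and Acly separates by siRNA, at 35.0 to 39.2 RPKM with H2AZ siRNA and 48.3 to 52.9 RPKM with NT siRNA.

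With H2AZ siRNA in both genotypes, 11 members were higher and 13 lower in KO than in WT, against 20.2% of all genes tested higher and 42.7% lower. The median was −0.004 over the members and −0.12 over all genes tested. After centring each library on its median 17 members were higher and 8 lower, over all genes 4281 were higher and 3635 lower, and the calls of Pmvk, Fdps, Fdft1, Abca1 and Acaca ended, with Fdft1 at 0.035 in place of −0.12 (adjusted p = 0.658). Idi1, at 30.3, 31.7 and 31.8 RPKM in KO H2AZ siRNA against 64.5, 55.5 and 63.3 RPKM in WT H2AZ siRNA, and Msmo1, at 24.9, 22.6 and 22.8 RPKM in KO H2AZ siRNA against 49.5, 43.6 and 48.9 RPKM in WT H2AZ siRNA, again had the largest falls, of −0.94 ± 0.11 and −0.98 ± 0.07 (limma adjusted p = 2.16e-05 and 3.38e-07). Soat1 had the largest rise, 0.54 ± 0.06 (limma adjusted p = 9.34e-06), followed by Npc1 (0.38) and Fasn (0.36). Calls that ended without 1 library of these groups were those of Fdps (adjusted p up to 0.0968), Fdft1 (up to 0.0816), Abca1 (up to 0.0754), Acly (0.0759, without WT H2AZ siRNA 1) and Ebp (0.0513, without WT H2AZ siRNA 3). For Fdps these libraries were WT H2AZ siRNA 1 and 2 and KO H2AZ siRNA 1 and 3, for Fdft1 WT H2AZ siRNA 2 and KO H2AZ siRNA 1 and 2, and for Abca1 all but KO H2AZ siRNA 3.

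Over all 4 comparisons of genotypes, 5 members were called lower every time, namely Hmgcs1, Idi1, Cyp51, Msmo1 and Hsd17b7, and 1 member, Soat1, was called higher every time. These are 13.5% and 2.70% of the 37 members tested, against 5.12% and 3.29% of the 11906 genes tested in both tables. For Hmgcs1 the log2 fold changes were −1.16 in DMSO, −0.65 in DAC, −0.65 with NT siRNA and −0.41 with H2AZ siRNA, and for Soat1 they were 2.67, 1.23, 0.50 and 0.54. The Msmo1 calls in DMSO and DAC and the Hsd17b7 call in DAC ended without single libraries named above. Another 7 members, Acaca, Abca1, Fdft1, Fdps, Insig1, Pmvk and Sc5d, were called lower 3 times and never higher (18.9% of members and 9.03% of those genes). Insig2 and Npc1 were called higher 3 times and never lower (5.41% and 3.92%). In 8 members the calls differed in direction between conditions, as for Fasn, Scd1, Tm7sf2, Ebp and Npc2, which were lower in KO DMSO but higher in KO with both siRNAs. Such a change of direction was found in 21.6% of the members and 15.3% of the genes tested in both tables. Side by side, 19 of the 37 members had the same sign in DMSO and with NT siRNA (51.4%, and 54.4% of the 11906 genes tested in both tables). Pearson's r between the log2 fold changes was 0.39 over the members and 0.37 over all those genes, where the points of 1 comparison share their libraries and the genes are not independent replicates.

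**Figure D5:**
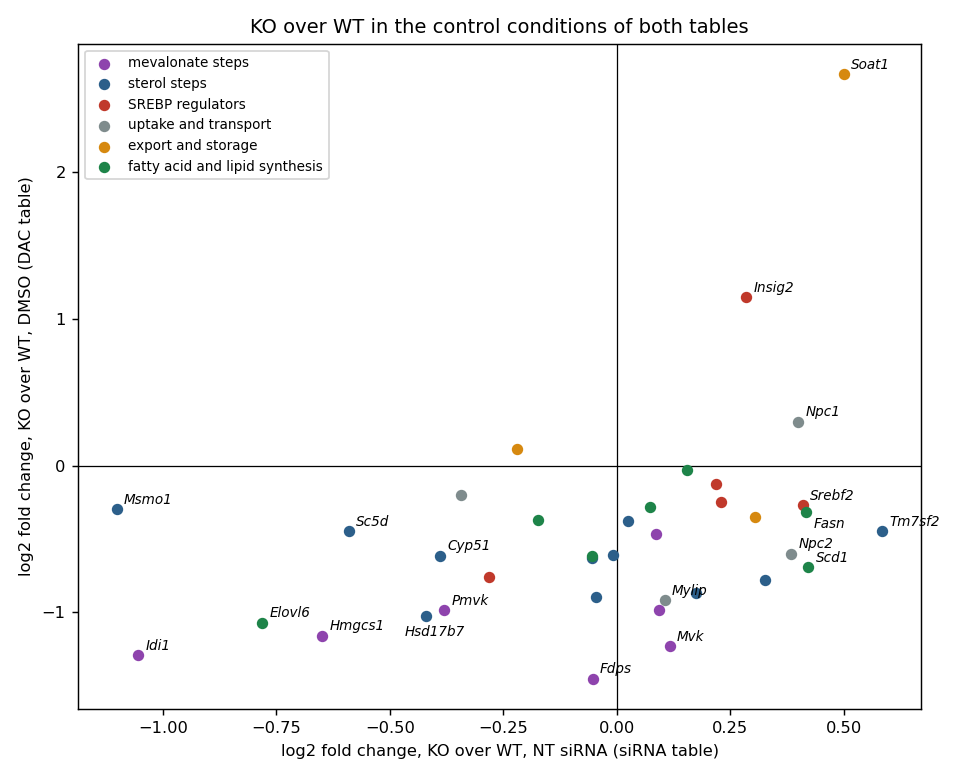
Log2 fold change of KO over WT for the 37 tested members in the control conditions, NT siRNA on the x axis and DMSO on the y axis, coloured by role. Idi1, Hmgcs1, Msmo1 and Elovl6 lie to the lower left, Soat1, Insig2 and Npc1 to the upper right, and Tm7sf2, Scd1, Fasn and Npc2 to the lower right, where the direction differs.

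H2AZ siRNA was compared with NT siRNA within each genotype. In KO cells 2 were higher and 12 lower with H2AZ siRNA than with NT siRNA, against 6.56% of all genes tested higher and 19.0% lower, and in WT cells 2 were higher and 5 lower, against 4.88% and 10.4%. After median centring 3 members were higher and 4 lower in KO and 5 were higher and 3 lower in WT, and over all genes 2010 were higher and 1367 lower in KO and 1306 were higher and 878 lower in WT. These counts come from fits without pairing. With the replicate number as a block in a fit of the 2 KO groups, 13 members were lower and 3 higher in KO. There 2079 of all 11939 genes tested were lower and 813 higher. The 2 higher members in KO without pairing became 0 without KO NT siRNA 2, KO NT siRNA 3 or KO H2AZ siRNA 1. In WT the 5 lower members became 3 without WT NT siRNA 2, WT H2AZ siRNA 1 or WT H2AZ siRNA 2, and the 2 higher ones became 1 without WT NT siRNA 2 or 3 or any WT H2AZ siRNA library and 4 without KO NT siRNA 1. Fatty acid synthesis held 5 of the 12 lower members in KO and 3 of the 5 in WT. Acly was at 38.8, 39.0 and 39.2 RPKM in KO H2AZ siRNA, against 52.9, 52.1 and 51.8 RPKM in KO NT siRNA (−0.41 ± 0.04, limma adjusted p = 4.76e-05). In WT it was at 35.0, 36.9 and 36.2 RPKM with H2AZ siRNA, against 50.5, 50.1 and 48.3 RPKM with NT siRNA (−0.45 ± 0.04, limma adjusted p = 3.63e-05), so that the groups did not overlap in either genotype. Scd2 was lower in both genotypes, by log2 fold changes of −0.26 in KO and −0.22 in WT, and so was Acaca (−0.21 and −0.17). Fasn (−0.26) and Scd1 (−0.20) were lower in KO. Of these, Acly and Scd2 passed in both genotypes after centring, while the calls of Acaca, Fasn and Scd1 ended. The Fasn call ended without KO NT siRNA 1 or KO H2AZ siRNA 3 (adjusted p up to 0.0601), and that of Scd1 without KO NT siRNA 1, KO NT siRNA 3, KO H2AZ siRNA 1 or KO H2AZ siRNA 2 (up to 0.0838). The Acaca call in WT ended without WT NT siRNA 1, WT NT siRNA 2 or any of the WT H2AZ siRNA libraries (adjusted p up to 0.0973).

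Outside fatty acid synthesis, Pmvk was lower with H2AZ siRNA in KO (−0.23, adjusted p = 0.18 after centring) and in WT (−0.33), and Hsd17b7 was higher in KO (0.28 ± 0.08, limma adjusted p = 0.0234) and in WT (0.30 ± 0.08, limma adjusted p = 0.0241). The Hsd17b7 calls ended without any 1 of 3 libraries in KO (KO NT siRNA 2, KO NT siRNA 3 or KO H2AZ siRNA 1, adjusted p up to 0.0894) and of 5 in WT (all but WT NT siRNA 1, up to 0.0877). Tm7sf2 was lower in KO, at 2.37, 2.27 and 2.51 RPKM with H2AZ siRNA against 3.22, 3.22 and 3.42 RPKM with NT siRNA (−0.34 ± 0.06, limma adjusted p = 0.00195). Nr1h2 was lower in KO as well (−0.33 ± 0.05, limma adjusted p = 0.00137). Squalene synthase Fdft1 was called lower in KO (−0.14 ± 0.04, limma adjusted p = 0.0215), but not with the replicate number as a block in a fit of the 2 KO groups (−0.14, adjusted p = 0.0559), nor without KO NT siRNA 2, KO NT siRNA 3, KO H2AZ siRNA 1 or KO H2AZ siRNA 2 (up to 0.0755). Npc2 was higher in WT, at 70.2, 70.6 and 67.1 RPKM with H2AZ siRNA against 61.1, 56.5 and 58.3 RPKM with NT siRNA (0.24 ± 0.05, limma adjusted p = 0.00868). Soat1, Insig2, Idi1 and Hmgcs1 did not pass the test in either genotype. The interaction of H2AZ siRNA with genotype was called for no member by limma or by limma-voom on the recovered reads, with 4 members at an unadjusted p under 0.05 by limma. Over all genes tested 0.00789% were higher and 0.0% lower, which is H2afz alone, with 1094 genes at an unadjusted p under 0.05, and limma-voom called 2 genes.

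A further 52 genes of the same pathways, listed with earlier results known, were counted beside the members. In DMSO 15 of the 50 tested were higher and 13 lower in KO, with a median of −0.015, where 19.6% of all genes tested were higher and 22.9% lower. The largest differences were those of Mlxipl, which encodes the carbohydrate response factor ChREBP and averaged 4.84 FPKM in KO DMSO against 0.0449 FPKM in WT DMSO (2.48), of the sterol carrier Gramd1b (1.35), of the retinoid X receptor Rxra, at 11.1 FPKM in KO DMSO against 30.4 FPKM in WT DMSO (−1.38), and of the elongase Elovl7 (−1.20). With DAC in both genotypes 6 of the 50 were higher and 9 lower in KO, against 11.1% and 11.6% of all genes tested. Between DAC and DMSO, 15 were higher and 14 lower with DAC in KO (all genes 23.7% and 21.6%). In WT 8 were higher and 8 lower with DAC (14.5% and 13.8%). The interaction was higher for 7 and lower for 10, against 12.4% and 11.7% of all genes tested. With NT siRNA 14 of the 43 tested were higher and 18 lower in KO, where 23.7% of all genes tested were higher and 40.4% lower. The largest differences were those of the citrate carrier Slc25a1, at 40.3 RPKM in KO NT siRNA against 24.7 RPKM in WT NT siRNA (0.69), the desaturase Fads1 (0.68), Osbpl9 (−0.74) and the prenyltransferase subunit Pggt1b (−0.69). With H2AZ siRNA in both genotypes 11 of the 43 tested were higher and 20 lower in KO than in WT, where 20.2% of all genes tested were higher and 42.7% lower. H2AZ siRNA was also compared with NT siRNA within each genotype. In KO 17 of the 43 were lower with H2AZ siRNA, among them 7 of the 12 fatty acid genes, and 1 was higher. In WT 6 were lower and 1 higher. Of all genes tested 19.0% were lower and 6.56% higher in KO, and 10.4% were lower and 4.88% higher in WT, a balance that median centring turned, as given above. Mlx, the partner of ChREBP, had the largest fall in KO (−0.45), and Erlin1 was the gene that was higher in both genotypes (0.34 in each).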

How the data were processed

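RNA was measured in 22 libraries made with a TruSeq Stranded Total RNA kit, per the labels' protocols. The authors deposited FPKM values for 10 libraries and RPKM values for 12. STAR, Bowtie2, deepTools and mm10 are named in the submitters' processing notes, while for the counter, annotation and strand setting the sources used here give nothing. Reads recovered from the value steps were whole (within 0.01 read) for 100.0% and 99.99% of values. Gene lengths were picked to give whole reads, so these shares are no independent check. The totals are known only up to a whole factor. Each table was fitted with limma 3.58.1 (R 4.3.3) on log2(value + 1), with intensity trend and 4 group means, over genes at 1 or more in at least 2 (DAC table) or 3 (siRNA table) libraries. Adding 1 understates the change of low genes. P-values were adjusted by Benjamini-Hochberg over the genes of each comparison and called under 0.05. The members and lists were chosen with earlier results of these data known. Called members could be named, and the largest change and the highest level of each role group are given per library; other pathway genes are the largest 2 in each direction, of which 1 is not reported here. By label number the KO NT and KO H2AZ siRNA libraries were taken as paired (deviations correlated at 0.156, 0.144 and 0.270). The pairing enters only the fits said to use a block, and the p-values given otherwise come from fits without it. Same-number values were also above 0 for WT NT with KO NT siRNA (0.319, 0.109 and 0.0234), where an unlike pair reached 0.177. They were above 0 too for WT H2AZ with KO H2AZ siRNA (0.0452, 0.037 and 0.0739). Whether these libraries share a batch was not tested. Alternatives were another pseudocount, other filters, median centring, a 1.5-fold minimum, fits of the groups compared, a replicate block, leaving out libraries, and limma-voom on the recovered reads. Figures used Python 3.11.15 and matplotlib 3.10.9.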

Additional observations from a re-analysis of the deposited data

Results flagged for a closer look

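The response to DAC differed between KO and WT for 23 members by limma's interaction test, given as the log2 fold change in KO minus that in WT. Among the mevalonate steps the values were 0.34 for Acat2, 0.51 for Hmgcs1, 0.82 for Mvk, 0.64 for Mvd, 0.62 for Idi1 and 0.85 for Fdps. Among the sterol steps they were 0.48 for Sqle, 0.87 for Nsdhl, 0.74 for Hsd17b7, 0.63 for Ebp and 0.31 for Dhcr7. Of the regulators Insig1 was at 0.82 and Insig2 at −0.96. Npc1 was at −0.30, Npc2 at 0.46, Abca1 at −0.57 and Soat1 at −1.44. The genes of fatty acid and lipid synthesis were at 0.35 for Acaca, 0.43 for Fasn, 1.03 for Elovl6, 0.72 for Scd1, 0.44 for Scd2 and −0.28 for Lpin1. All 23 rest on the KO DMSO libraries, in which mesothelial markers summed to 1010 to 1040 FPKM, against 9.33 to 11.7 FPKM in WT DMSO. The part of these markers in the differences was not tested. The calls of Dhcr7 and Lpin1 ended without 9 and 7 of the 10 libraries left out singly, with limma adjusted p up to 0.148 and 0.128, and those of Acat2, Idi1, Fdps, Ebp, Npc1 and Scd2 without 2 to 4 of them.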

How the results depend on the processing

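Of 174 calls on single members, 171 stayed called in the same direction by limma-voom on the recovered reads, 173 with a pseudocount of 0.1, 165 with no filter and 154 after median centring. A minimum of 1.5-fold left 53, since most differences were small. With it the lower and higher members numbered 3 lower for KO over WT in DAC, 2 lower and 1 higher for DAC over DMSO in WT, 1 lower and 4 higher in KO, 2 lower and 10 higher for their interaction, 5 lower and 1 higher for KO over WT with NT siRNA, 2 lower and 0 higher with H2AZ siRNA, and 0 in either direction for H2AZ over NT siRNA in both genotypes. Median centring gave 8 lower and 17 higher for KO over WT with H2AZ siRNA, where Fdft1 reversed to 0.035, 3 lower and 5 higher for H2AZ over NT siRNA in WT and 4 lower in KO. Fits of the groups compared gave 2 higher for DAC over DMSO in WT, and for H2AZ over NT siRNA 3 lower in WT and 7 lower and 0 higher in KO. With no filter the higher members for H2AZ over NT siRNA numbered 1 in WT and 0 in KO. Without WT DAC 3 and KO DAC 1, chosen after seeing the data, 2 were higher for KO over WT in DAC and 7 for DAC over DMSO in WT. The cause of these shifts was not tested.

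Leaving out 1 library at a time gave 23 to 29 lower and 3 higher for KO over WT in DMSO and 10 to 17 lower and 1 higher in DAC. It gave 6 to 12 lower and 2 to 5 higher for DAC over DMSO in WT, 3 to 7 lower and 11 to 18 higher in KO, and 3 to 5 lower and 12 to 19 higher for their interaction. It gave 9 to 12 lower and 12 to 14 higher for KO over WT with NT siRNA, 10 to 15 lower and 10 to 12 higher with H2AZ siRNA, 3 to 5 lower and 1 to 4 higher for H2AZ over NT siRNA in WT, and 9 to 13 lower and 0 to 3 higher in KO. A group of 2 DMSO libraries leaves a lone library that is assumed to vary like the other groups.

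With the replicate number as a block, the paired KO siRNA groups gave 13 lower and 3 higher members, and the call of Fdft1 ended. Elsewhere the numbers were not read as pairs, as for KO DAC and WT DAC (r = −0.225, 0.126 and −0.217). For WT NT and KO NT siRNA same-number values were above 0 (r = 0.319, 0.109 and 0.0234). The block moved no count by over 1.5 times, with 5 lower and 13 higher for DAC over DMSO in KO. Read counts were low for Pmvk in the DAC table (17 to 125 recovered reads a library) and for Abcg1 in both tables.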
